A study of Mus musculus with 10 samples.

Results

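The beta-defensins of the mouse testis are described here by 4 genes, Defb19, Defb25, Defb33 and Defb36. They were taken by their symbols from 2 tables of RNA-seq values, one of adult testis, which lists 20007 genes, and one of Sertoli cells at day 7 after birth, which lists 17816. All 4 are among the 24 Defb genes of the adult table, and 3 are among the 8 of the day 7 table, where Defb33 is not listed. The 4 genes were chosen from their measured values in these same samples, so their values are a description and carry no test. All 4 passed the filter on low values in adult testis, Defb33 through the controls alone and Defb25 through the knockouts alone, and the 3 listed at day 7 passed it there.

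Beta-defensins are small secreted, positively charged peptides whose paired cysteines hold a compact fold, and they damage the membranes of microbes. Some also act as signals to leukocytes through the chemokine receptor CCR6. In the male tract they are best known from the epididymis, where several coat maturing sperm, and Defb19 is known as a gene of Sertoli cells, the somatic cells that nurse germ cells inside the seminiferous tubule.

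The study removed Rnf20, which encodes an E3 ubiquitin ligase for histone H2B, in Sertoli cells of mice by Cre recombinase driven from the Amh promoter. The adult table holds 3 testis samples labelled WT and 3 labelled RNF20 conditional knockout. The day 7 table, whose samples carry day 7 in their titles and adult tissue in their growth protocol label, holds 2 samples of Sertoli cells labelled WT, which the study names Rnf20 Flox/Flox, and 2 labelled conditional knockout, named Amh-Rnf20-/-. All mice were untreated, and the samples are called control and knockout, with their replicate number, below. The study's methods describe the day 7 cells as adherent cells cultured from the testis, from 3 individuals per group, of which 2 samples per group were analysed here. The adult RNA-seq is not described in the study's text, and the exact age of the adult mice is not given in the sources used here. The labels do not say that samples of a group came from separate animals, so the error terms measure the spread between samples, which may be technical.

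Estimated counts per sample summed to between 15431912 and 16574144 in adult testis and between 17477268 and 17705347 at day 7. Rnf20 itself had FPKM values (fragments per kilobase of transcript, scaled by library size) of 16.6 and 16.0 in the day 7 controls and of 10.3 and 12.6 in the day 7 knockouts. In adult testis it had 4.89, 3.32 and 4.09 in the controls against 9.16, 5.76 and 9.85 in the knockouts. Rnf20 FPKM was thus not lower in the adult samples labelled knockout. These are samples of testis, while the deletion was made in Sertoli cells, and the part of other cells in this value was not tested. On library-normalised counts with TMM scaling (edgeR's scaling between samples), the adult controls had 24.6, 18.2 and 20.5. The adult knockouts had 27.8, 14.9 and 26.3, so the groups overlapped. Every adult direction below rests on the label. The spermatid markers were near 0 in the samples labelled knockout. The study's histology found neither round nor elongated spermatids in knockout tubules, and its Western blots showed less RNF20 protein in knockout testes. Its text does not tie these measures to the adult RNA-seq. Adult knockout 1 stood apart from the other two knockouts, with a chi-square per degree of freedom of 95 and 127 against them, where knockouts 2 and 3 gave 23.0 and the controls gave 14.3 to 18.6. The day 7 knockouts also stood apart from each other, at 38.1 against 2.81 between the controls.

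The defining feature of the family can be read from the coding sequences, which are shown because the spacing of the cysteine codons separates Defb33 from the other members. They come from GENCODE M21 transcripts on GRCm38, 5′ to 3′ and without the stop codon, and the last 6 cysteine codons of each are in capitals.
Defb19: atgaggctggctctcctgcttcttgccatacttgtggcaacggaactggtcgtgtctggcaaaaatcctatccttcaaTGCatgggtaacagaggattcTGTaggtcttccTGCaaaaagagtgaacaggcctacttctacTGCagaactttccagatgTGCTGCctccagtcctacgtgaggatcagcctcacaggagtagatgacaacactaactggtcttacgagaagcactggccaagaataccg
Defb36: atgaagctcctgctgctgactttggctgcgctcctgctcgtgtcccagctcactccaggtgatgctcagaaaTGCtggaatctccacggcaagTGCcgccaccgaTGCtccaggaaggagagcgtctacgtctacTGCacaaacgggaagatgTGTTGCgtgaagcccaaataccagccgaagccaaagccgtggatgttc
Defb25: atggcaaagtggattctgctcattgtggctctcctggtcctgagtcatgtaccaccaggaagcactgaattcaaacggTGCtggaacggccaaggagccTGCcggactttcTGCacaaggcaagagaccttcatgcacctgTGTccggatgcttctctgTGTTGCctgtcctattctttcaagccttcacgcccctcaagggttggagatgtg
Defb33: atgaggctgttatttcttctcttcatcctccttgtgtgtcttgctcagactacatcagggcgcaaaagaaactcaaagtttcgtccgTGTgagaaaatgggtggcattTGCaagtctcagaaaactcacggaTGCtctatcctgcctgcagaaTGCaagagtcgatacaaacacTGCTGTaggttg

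Defb19 (83 codons), Defb36 (67) and Defb25 (71) have the same spacing, with 6, 3, 9 and 5 codons between successive cysteine codons and an adjacent pair at the end. Defb33 (62 codons) has 6, 7, 6 and 6 codons between them, the same adjacent pair, and a further cysteine codon near its start. The 3 genes of equal spacing lie close together, and Defb33 lies on another chromosome.

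On GRCm38.p6 in the RefSeq annotation, Defb19 (gene ID 246700) lies at chr2:152576086-152580312 on the minus strand, Defb36 (266620) at chr2:152604327-152612729 on the plus strand and Defb25 (654459) at chr2:152622356-152623053 on the minus strand. Defb33 (654453) lies at chr8:20892667-20897723 on the plus strand, with Gm21119 and Gm15056 as its nearest protein-coding neighbours. The chromosome 2 genes follow each other in the order Defb21, Defb19, Defb45, Defb36, Defb25 and Rem1. The neighbours Defb21 and Defb45 share the cysteine spacing of the chromosome 2 members. The annotated lncRNA Gm31618 and the pseudogene Gm14163 overlap Defb36, and neither is listed in the tables. The handling of strand is not given in the sources used here, so reads from these overlapping genes could have been counted with Defb36. No stretch of 50 bases of a member's transcript is shared with another gene's GENCODE transcript, so reads of that length could be assigned to 1 gene.

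In adult control testis the members stood in the order Defb19, Defb33, Defb36 and Defb25. Defb19 had FPKM values of 1164, 999.1 and 606, Defb33 of 425, 490 and 345, and Defb36 of 247, 210 and 153. The ranges of these 3 genes did not overlap, so neighbours in this order were further apart than their spread (SD, n = 3, of 287, 72.7 and 47.2). Defb25 was listed at 0 in all 3 controls.

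In the adult knockouts the order changed to Defb19, Defb36, Defb25 and Defb33. Defb33 had no count in any of the 3, Defb19 was higher than in every control, and Defb25 was counted in all 3. Defb36 was low in knockout 1 and high in the other two. The plot of the members by sample shows these levels on a log2 scale.

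**Figure D1:**
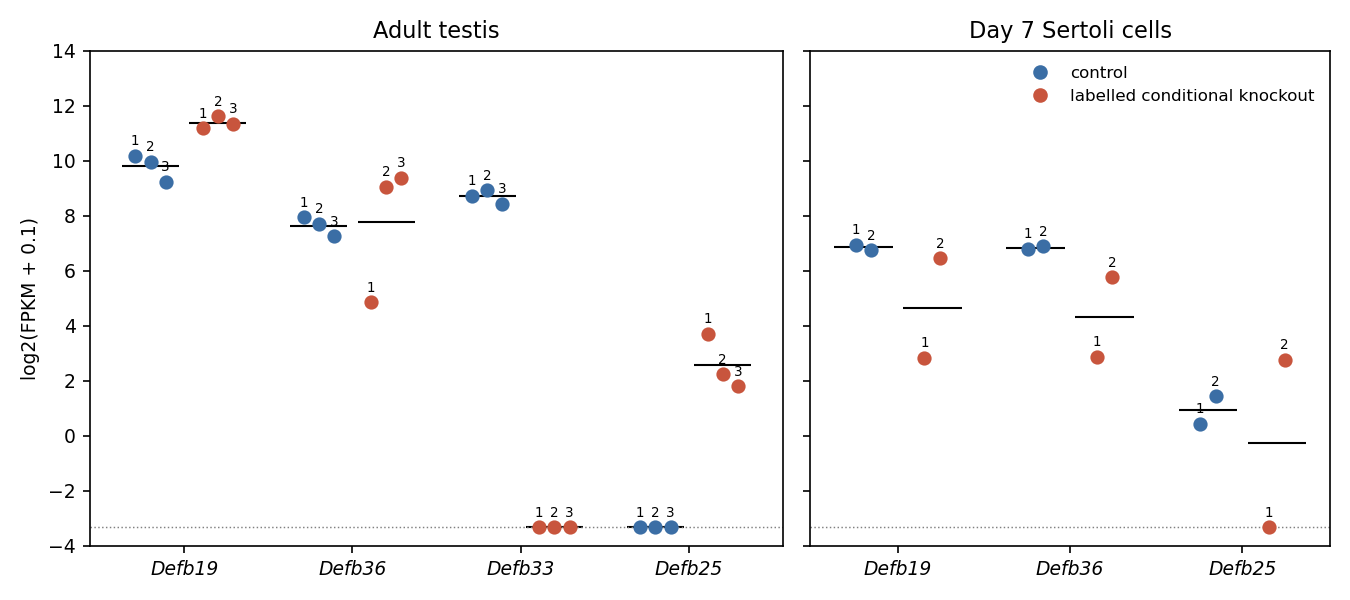
Level of each beta-defensin member as log2(FPKM + 0.1) in every adult testis sample (left) and day 7 Sertoli cell sample (right), with controls in blue and samples labelled conditional knockout in red. Points carry the replicate number, black bars are group means and the dotted line is an FPKM of 0, on which Defb33 lies in all 3 adult knockouts and Defb25 in all 3 adult controls.

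Defb33 was the member that was lost. Its estimated counts were 1208, 1370 and 990 in the adult controls and 0 in each knockout. With 3 counts over the knockout group as the floor, it was at least 2081-fold lower on TMM-scaled counts (trimmed mean of M values, edgeR's scaling between samples). Scaled by total counts the bound was at least 1149-fold, and with median-ratio scaling it was at least 2390-fold. Leaving out any 1 knockout lowered the TMM bound to between 1370- and 1422-fold.

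The spermatid markers were low in the same samples. Of the 14 listed, among them Prm1 and Tnp2, which encode the proteins that pack DNA in the sperm head, summed FPKM ranged from 127011 to 196037 in control testis and from 3.40 to 98.6 in the knockouts. Prm1 alone had 73382, 89250 and 52396 FPKM in the controls and 0, 14.5 and 1.30 in the knockouts. Defb33 differed from the mean profile of the spermatid markers by a root mean square of 1.93 on the log2(FPKM + 0.1) scale over the 6 samples, against 6.03 for the spermatocyte markers and 9.53 for the Sertoli cell markers. The samples share libraries and these distances are a description, in which the added 0.1 sets the place of Defb33 in the knockouts. In a bulk sample, fewer cells of a type and less RNA per cell cannot be told apart.

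The genes most like Defb33 over the 6 adult samples, by the smallest root mean square difference of centred log2(FPKM + 0.1) among 14607 genes, were Nudt16l2 (0.55), H2al1n (0.59) and H2al2a (0.73). H2al2a, a histone variant of late spermatids, had 1099, 1230 and 907 FPKM in the controls and 0, 0.22 and 0.45 in the knockouts. All 3 were at or near 0 in each knockout, as Defb33 was. Defb33 is not listed at day 7, and the spermatid markers that are listed there, 8 of 14, summed to between 0.55 and 1.41 FPKM.

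Defb19 was the most abundant member in every adult sample. Its FPKM in the knockouts was 2331, 3125 and 2604, all above the highest control, 1164. It ranked 91, 127 and 209 among all listed genes in the controls and 41, 15 and 17 in the knockouts, counted from the highest FPKM. Mean FPKM was 2.91-fold higher, 2687 ± 404 against 923 ± 287 (SD, n = 3 each).

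The size of that difference depended on the scaling. On TMM-scaled counts Defb19 was higher by 0.67 on the log2 scale (SE 0.27), and on total counts by 1.53. Total-count scaling put the median of all tested genes at 0.87 and TMM put it at 0.01, so Defb19 lay 0.66 above the median gene under both. Without knockout 1 the TMM difference was 0.87. In TMM-scaled and library-normalised counts (CPM) the controls had 216, 198 and 117 and the knockouts 255, 323 and 266, and the groups did not overlap. Of 15919 tested adult genes, 85.5% had groups that did not overlap on the scale of TMM-scaled counts.

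Defb36 was split by 1 sample. Its FPKM was 29.0 in knockout 1 but 534 and 664 in knockouts 2 and 3, which were both above the highest control, 247. On TMM-scaled counts it differed by 0.11 on the log2 scale (SE 0.92) between the groups, and by 0.79 without knockout 1. Under median-ratio scaling it differed by -0.11 with all samples. Relative to the median gene it lay 0.10 above under TMM, 0.14 under total-count and 0.08 under median-ratio scaling. Its direction also depended on the samples counted, with differences of -0.14 without knockout 2, -0.25 without knockout 3 and -0.06 without control 3.

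The ratio of Defb19 to Defb36 FPKM shows the same split. It was 4.71, 4.76 and 3.95 in the adult controls, 5.85 and 3.92 in knockouts 2 and 3 and 80.4 in knockout 1. Defb19 stayed high in knockout 1 while Defb36 did not.

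Knockout 1 was also low in several genes of Sertoli cells and of germ cells. Sox9, a transcription factor of Sertoli cell identity, had 1.20 FPKM there against 9.86 and 12.7 in the other knockouts and 1.37 to 2.34 in the controls. Fshr, the receptor for follicle-stimulating hormone, had 0.30 against 4.76 and 8.70, and Dmrt1, which Sertoli cells and spermatogonia share, had 0.57 against 17.3 and 24.9. Gata4, a factor of Sertoli and Leydig cells, had 53.5 against 57.7 and 54.9, and the inhibin gene Inha was highest in knockout 1 at 766. Sycp3, of the meiotic chromosome axis, had 0.80 FPKM there against 42.5 and 72.4, and the germ cell helicase gene Ddx4 had 0.93 against 21.4 and 33.6. Aard, a Sertoli cell marker, had 92.4 against 656 and 741, and Syce1, of the synaptonemal complex, 0.26 against 26.2 and 33.1. Over the whole list of 20 Sertoli cell markers, summed FPKM ran from 811 to 1049 in control testis and was 2907, 5962 and 6865 in knockouts 1, 2 and 3. In knockout 1 Clu and Inha, at 1857 and 766 FPKM, made up most of that sum, and the mean of the list on the log2(FPKM + 0.1) scale was at the level of the controls (a difference of 0.00). The part of these markers in the low value of Defb36 was not tested.

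Defb19 and Defb36 were set against the 20 Sertoli cell markers, as log2(FPKM + 0.1) minus the mean of the markers in the same sample. Defb36 was below its controls in all 3 adult knockouts on this scale, with 1.79, 4.07 and 3.98 against 4.64, 4.81 and 4.26. The share of all genes with such a separation was not computed on this scale. The mean of the markers itself lay 1.92 and 2.33 above that of the controls in knockouts 2 and 3, which lowers relative values there. Defb19 had 8.12, 6.62 and 5.95 against 6.87, 7.07 and 6.24, and its groups overlapped. The mean differences were -1.29 for Defb36 and 0.17 for Defb19, and without knockout 1 they were -0.55 and -0.44. Without that sample, the means of both genes relative to these markers lay below those of the controls. One marker, Rhox5, a homeobox gene driven by androgen in Sertoli cells, was itself near 0 in the knockouts, at 0.34, 0.34 and 1.41 FPKM against 16.6 to 20.8.

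**Figure D2:**
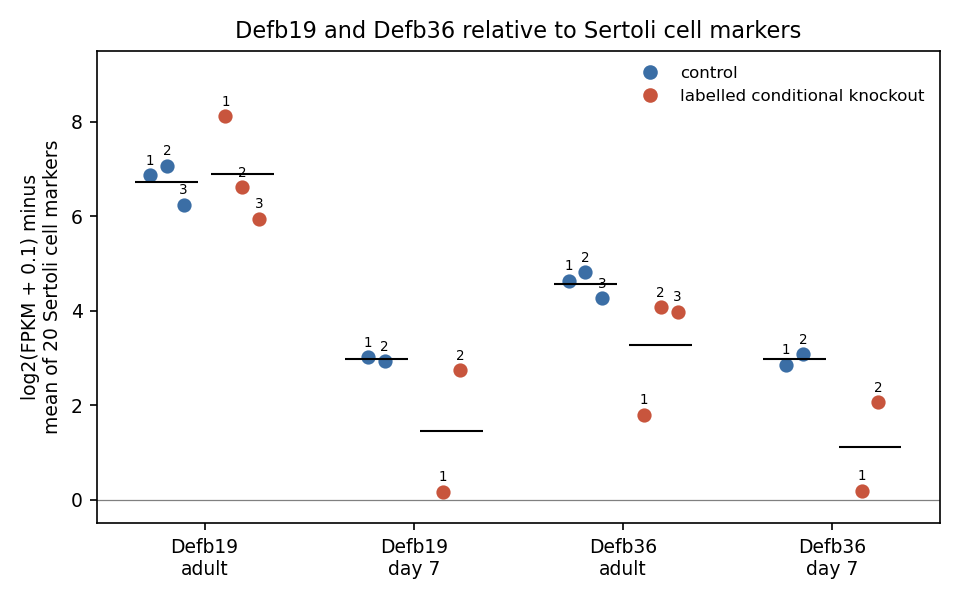
Defb19 and Defb36 in each sample as log2(FPKM + 0.1) minus the mean of 20 Sertoli cell markers on the same scale, for adult testis and day 7 Sertoli cells, with controls in blue, samples labelled conditional knockout in red and group means as bars. Adult knockout 1 is the lowest adult point for Defb36, at 1.79, and the highest for Defb19, at 8.12.

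The marker lists differ in how they moved in the adult knockouts, and the members can be placed beside them. Against the mean of the controls on the log2(FPKM + 0.1) scale, Defb19 lay at 1.39, 1.81 and 1.55 in knockouts 1, 2 and 3. The peritubular myoid cell markers, of the contractile cells around the tubule, lay at 1.97, 1.25 and 1.66, and the Sertoli cell markers at 0.00, 1.92 and 2.33. Defb19 had its smallest root mean square distance to the myoid list (0.40, 7 genes) and the next to the Sertoli list (0.70, 20 genes). Members of the myoid list did not move alike, since Acta2 had 13.7 to 23.6 FPKM in the controls and 120 to 217 in the knockouts, while Actg2 had 255 to 335 and then 1.67 to 3.60. Myl9, a myosin light chain of smooth muscle, had 40.4 to 51.4 and then 271 to 302.

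Defb36 lay at -2.78, 1.42 and 1.73 in the same 3 knockouts. The spermatogonium markers lay at -1.93, 0.41 and 0.79, and were the nearest list to it (0.70, 13 genes), with the Sertoli list next (1.19). Spermatogonium markers did not move alike either. Kit had 1.92 to 1.96 FPKM in the controls and 29.7 to 53.8 in the knockouts, while Ddx4 had 169 to 199 and then 0.93 to 33.6. The gap to the Sertoli list lay mostly in knockout 1, where that list was at 0.00. The single genes most like Defb36 were Mro (0.12), Clec12b (0.20) and Sema5b (0.23), and Mro is itself one of the Sertoli cell markers. Mro had 15, 9.65 and 8.48 FPKM in the controls and 1.49, 28.5 and 38.3 in the knockouts, with the same low value in knockout 1.

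For Defb19 the most alike genes were Tlcd3a (0.15), Cyb5rl (0.16) and Dusp23 (0.17), all of which had FPKM values under 5 in every adult sample. The likeness concerns the pattern over 6 samples and not the level. Tlcd3a had 1.43, 1.13 and 0.73 FPKM in the controls and 2.87, 3.18 and 3.65 in the knockouts.

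**Figure D3:**
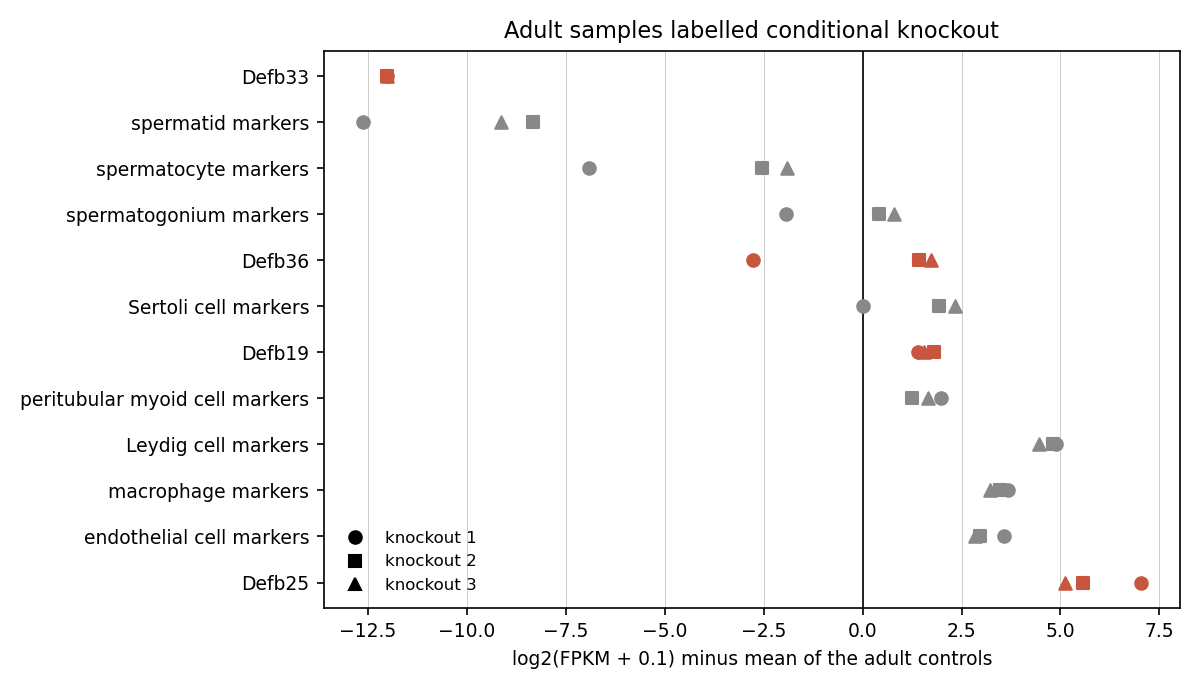
Change of each member (red) and of the mean of each cell type marker list (grey) in the 3 adult samples labelled conditional knockout, as log2(FPKM + 0.1) minus the mean of the adult controls, with a symbol for each sample. Defb33 lies at -12.0 in all 3, where an FPKM of 0 and the added 0.1 place it, and the spermatid markers at -12.6, -8.33 and -9.15 in knockouts 1, 2 and 3, while Defb36 is below 0 in knockout 1 and above 0 in the other two.

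Defb25 was scarce. Its estimated counts were 11, 4 and 3 in adult knockouts 1, 2 and 3, which are 13.0, 4.64 and 3.39 FPKM, and 0 in each control. All 3 knockouts were above all 3 controls, with knockout 1 highest, in a table where 85.5% of tested genes had groups that did not overlap. Against a floor of 3 counts over the control group it was at least 3.43-fold higher on TMM-scaled counts, at least 6.21-fold on total counts and at least 2.99-fold with median-ratio scaling. Without knockout 1 the TMM bound was 1.95-fold. One read was worth about 1.17 FPKM for this short gene, so the FPKM values rest on few reads.

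The genes most like Defb25 in adult testis were Gm9780 (0.21), Prrg3 (0.24) and Apol6 (0.28), each higher in the knockouts and highest in knockout 1. Prrg3 had 33.4, 17.2 and 13.4 FPKM in the knockouts and 0.18 to 0.29 in the controls. Since the controls of Defb25 are at 0, these likenesses depend on the added 0.1, and no marker list is named as the nearest to it. Leydig cell markers, of the cells that make testosterone, were also high in the knockouts, with Insl3 at 54592, 80266 and 65865 FPKM against 3700 to 5402 and Cyp17a1 at 3284, 3374 and 2233 against 74.2 to 196. The 8 of them summed to 4067 to 5656 FPKM in control testis, against 65460, 90283 and 72939 in knockouts 1, 2 and 3. That sum was lowest in knockout 1, where Defb25 was highest. On the mean of log2(FPKM + 0.1), the myoid, macrophage, endothelial and rete testis and efferent duct markers were also above the controls in every knockout. The part of any of these cells in the Defb25 counts was not tested.

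In the day 7 Sertoli cells Defb19 and Defb36 were close to each other in level. Defb19 had 124 and 107 FPKM in the controls and Defb36 had 111 and 118, so their order did not hold beyond the spread between samples. The ratio of Defb19 to Defb36 in the controls, 1.12 and 0.908, can be set beside 0.983 and 1.61 in the knockouts. The 2 tables were made separately, so the higher ratio in adult testis is set beside these values and was not tested.

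Both genes were lower in both day 7 knockouts than in either control, by very different amounts. Defb19 had 7.07 FPKM in knockout 1 and 87.7 in knockout 2. Defb36 had 7.19 and 54.3. Knockout 1 was thus the low sample for both genes, and knockout 2 lay nearer to the controls than to knockout 1 for Defb19. At this age 51% of 12880 tested genes had groups that did not overlap.

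On TMM-scaled counts Defb19 was lower by 1.29 on the log2 scale (log2 difference -1.29, SE 0.97) and Defb36 by 1.88 (log2 difference -1.88, SE 0.82). Without knockout 1 the differences were -0.41 and -1.07, and without knockout 2 they were -3.92 and -3.91. The scaling moved them little, to -1.33 and -1.92 on total counts. No gene at day 7 passed the thresholds used here, an edgeR adjusted p under 0.001 with a change over 2-fold (0% of 12880). In all, 1997 genes had an unadjusted p under 0.05, limma on log2(FPKM + 0.1) called 0 genes and DESeq2 called 104 higher and 22 lower. The count of 0 depended on the discordant knockouts, since edgeR called 339 higher and 311 lower without knockout 2 and 46 higher and 15 lower without knockout 1.

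The Sertoli cell markers moved in the same samples at day 7. On the log2(FPKM + 0.1) scale the mean of the 20 markers lay 1.19 below the controls in knockout 1 (-1.19) and 0.16 below them in knockout 2 (-0.16). Cldn11, which encodes a tight junction protein of Sertoli cells, had 229 and 214 FPKM in the controls against 14.01 and 150 in the knockouts, and Sox9 had 41.8 and 39.4 against 10.2 and 25.7. Relative to the marker mean, Defb19 had 3.02 and 2.93 in the controls against 0.16 and 2.74 in the knockouts, and Defb36 had 2.86 and 3.07 against 0.19 and 2.05. Both members thus lay below their controls on this scale as well, with knockout 1 lowest, and no share of all genes was computed for it.

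The day 7 samples held RNA of other cells too. The 7 peritubular myoid cell markers summed to 2515 and 2376 FPKM in the controls and 4115 and 4291 in the knockouts, led by Acta2 with 1097 and 1058 in the controls. The 13 spermatogonium markers summed to 225 and 218 FPKM in the controls and to 155 and 154 in the knockouts, and most of it was Uchl1, while the germ cell gene Ddx4 had 5.48 and 6.93 against 3.70 and 4.12. Leydig cell markers, 7 of them listed, summed to 156 and 161 FPKM in the controls and to 302 and 214 in the knockouts. The mean of the 9 macrophage markers on the log2(FPKM + 0.1) scale lay 0.83 and 0.47 above the controls in knockouts 1 and 2. The part of these cells in the values of Defb19 and Defb36 was not tested.

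Defb25 had 1 and 2 counts in the day 7 controls and 0 and 5 in the knockouts. The ratio of the summed counts, knockout over control, was 1.71 with an exact 95% interval from 0.333 to 11.0, which covers counting error only. All of the knockout counts are from knockout 2.

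The other beta-defensins of the adult table, 20 genes, were mostly near 0, and 13 of them had at most 3 counts in every sample. Only 5 passed the filter on low values (FPKM of at least 0.5 in 3 samples). Of those, Defb14 and Defb21 were lower past the thresholds, against 23.7% of all 15919 tested genes called lower and 23% called higher. Both entered the test through the control samples, so this count is read no further. It was 3 without knockout 1 and 1 without any other single sample. Over all 15919 tested genes, 3772 were called lower with all samples, 5031 without knockout 1 and 1613 to 1951 without any other single sample.

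Defb21, the neighbour of Defb19, had 14.6, 14.7 and 24.3 FPKM in the controls and 0, 0 and 0.37 in the knockouts (edgeR log2 fold change -7.54, SE 0.70, adjusted p = 1.51e-04). Defb14, a broadly antimicrobial defensin of epithelia, had 14.9, 20.9 and 14.3 FPKM and then 0.02, 0.21 and 0.16 (edgeR log2 fold change -6.70, SE 0.43, adjusted p = 5.01e-05). Both were near 0 in each knockout, as Defb33 was, although Defb21 lies beside Defb19, which was higher.

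Defb30 and Defb41 also entered through the controls and passed only at an edgeR adjusted p under 0.05. Defb30 had 5.5, 1.39 and 1.89 FPKM in the controls and 0, 0.25 and 0.09 in the knockouts (adjusted p = 0.00196), and Defb41 had 1.85, 1.31 and 0.84 against 0, 0.29 and 0.30 (adjusted p = 0.00488). At that threshold 40.6% of tested genes were lower and 40.9% higher. Since these 4 had every knockout below the filter, the test could not have called them higher.

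Defb45, which lies between Defb19 and Defb36, followed the pattern of Defb36 and not that of Defb19. It had 34.7, 31.3 and 16.2 FPKM in the controls and 2.36, 37.4 and 52.8 in the knockouts, with knockout 1 low. The ratio of Defb36 to Defb45 was 7.13, 6.70 and 9.46 in control testis, against 12.3, 14.3 and 12.6 in the knockouts. The groups overlapped for Defb45 (edgeR log2 fold change -0.72, SE 0.90, adjusted p = 0.477).

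**Figure D4:**
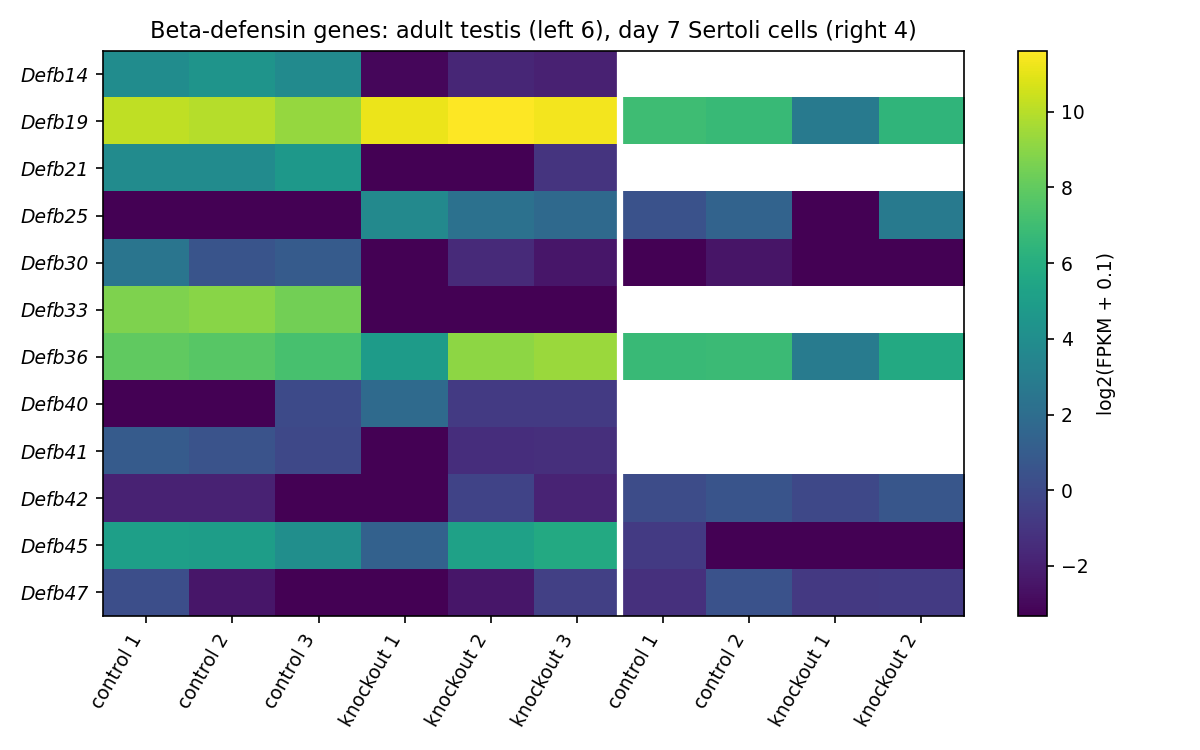
Levels of the 12 Defb genes with more than 3 counts in any sample, as log2(FPKM + 0.1), in the 6 adult testis samples and the 4 day 7 Sertoli cell samples, with white for genes not listed in the day 7 table. Defb14, Defb21, Defb30, Defb33 and Defb41 are dark in the adult knockouts, and Defb36 and Defb45 are darker in knockout 1 than in knockouts 2 and 3.

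The promoters of Defb36 and Defb45 are shown because these 2 neighbours shared the low value in knockout 1. The RefSeq sequences on GRCm38.p6 run from 250 bases before to 50 bases after the annotated start, 5′ to 3′ on the gene's own strand, at chr2:152604077-152604376 (plus) and chr2:152596436-152596735 (minus). Capitals mark matches on either strand to any of 5 short motifs. The androgen receptor half-site was searched as AGAACA. The half-site of the cyclic AMP response element was searched as TGACGT. The cores bound by the SOX factors, by the steroidogenic factor NR5A1 and by GATA factors were searched as AACAAT for the first, as AAGGTCA for the second and as AGATAA for the last. No motif matched the same bases as another in these windows. The set holds entries for Defb33 and Defb36 among the members.
Defb36: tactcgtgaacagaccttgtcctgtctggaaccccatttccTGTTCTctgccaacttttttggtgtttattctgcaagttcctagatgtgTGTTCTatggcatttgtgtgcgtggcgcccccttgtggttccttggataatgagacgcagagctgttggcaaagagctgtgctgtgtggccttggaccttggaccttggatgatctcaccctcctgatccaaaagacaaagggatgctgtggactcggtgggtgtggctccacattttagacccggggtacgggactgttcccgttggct
Defb45: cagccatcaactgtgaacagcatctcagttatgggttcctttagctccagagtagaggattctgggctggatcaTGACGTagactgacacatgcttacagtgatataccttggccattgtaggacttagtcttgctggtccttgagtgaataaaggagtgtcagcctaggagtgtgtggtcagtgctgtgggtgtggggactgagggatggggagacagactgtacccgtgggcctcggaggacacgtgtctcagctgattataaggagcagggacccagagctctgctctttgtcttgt

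Defb36 has 2 matches to AGAACA, both on the reverse strand, and 19% of the 32851 promoter windows hold at least 1. Defb45 has 1 match to TGACGT, which 7.51% of the windows hold. These windows hold no other match, and the Defb33 window holds none. The SOX core is in 10.7%, the NR5A1 core in 4.72% and the GATA core in 11.2% of all windows. A match is a run of letters and not a measured site.

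Other host-defence genes of the male tract were called in both directions in adult testis. Of 36 genes in that list, 35 are listed and 26 were tested, and 4 were higher and 7 lower past the thresholds (median log2 fold change -2.09, against 0.01 over all tested genes), where 23% of all tested genes were called higher and 23.7% lower. DESeq2 called 6 higher and 13 lower and limma on log2(FPKM + 0.1) 4 higher and 3 lower, so the lower count depended on the tool. The counts over all 15919 tested genes differed too, with 4603 higher and 5653 lower by DESeq2 and 5867 higher and 2468 lower by limma. On total counts, without TMM scaling, edgeR called 5836 higher and 2252 lower. The limma values were FPKM without TMM scaling, so tool and scaling changed together there. Without knockout 1 the edgeR counts were 7 higher and 13 lower, and the shares of all tested genes were then 33.1% and 31.6%. The lists were drawn up with earlier results of these samples known.

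Lcn2, an iron-binding protein of innate defence, had 221, 407 and 354 FPKM in the controls and 6930, 14616 and 8772 in the knockouts (edgeR log2 fold change 4.07, SE 0.46, adjusted p = 0.000327). Lyz2, a lysozyme of macrophages, had 26.4 ± 2.60 and 1309 ± 383 (SD, n = 3; edgeR log2 fold change 4.78, adjusted p = 6.73e-05), and its near-identical copy Lyz1 may share its reads. Wfdc2, a secreted protease inhibitor-like protein of duct epithelia, had the largest rise among the called genes of that list, from 0.22 ± 0.08 to 18.3 ± 12.4 FPKM (edgeR log2 fold change 5.44, adjusted p = 0.000752). Wfdc2 reached the filter through the knockouts alone and could only be called higher. The 3 were higher in every knockout than in every control, where 85.5% of tested adult genes had groups that did not overlap on TMM-scaled counts.

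Cst13, a cystatin-type inhibitor, fell furthest in that list, from 237, 319 and 250 FPKM to 0.37, 0.85 and 0.48 (edgeR log2 fold change -9.78, SE 0.38, adjusted p = 2.70e-05). The sperm lysozyme-like genes Lyzl1, Lyzl4, Spaca3 and Spaca5 were among the 7 lower genes, with log2 fold changes between -7.43 and -6.60. Their mean FPKM in the knockouts was at most 3.08, in the samples where Defb33 had no count.

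Of 22 genes for defensin receptors and innate sensing, 21 were tested, 15 were higher and 1 was lower past the thresholds (median log2 fold change 3.25), against 23% and 23.7% of all tested genes. Without knockout 1 the counts were 17 higher and 1 lower, against 33.1% and 31.6% of all tested genes. Of the 15, 7 had all 3 controls under the filter of 0.5 FPKM and so could only be called higher, and the other 8 did not. The 1 lower gene was Ccr6, which encodes the receptor that beta-defensins share with a chemokine. It had 3.40, 4.13 and 4.83 FPKM in the controls and 0.07, 0.24 and 0.13 in the knockouts (edgeR log2 fold change -4.63, SE 0.40, adjusted p = 0.000118). It reached the filter through the controls alone, so it could only be called lower.

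Tlr4, the receptor for bacterial lipopolysaccharide, had the largest rise among the called genes, from 0.02, 0.05 and 0.10 FPKM to 1.88, 2.89 and 2.49 (edgeR log2 fold change 4.55, adjusted p = 0.000218). Tlr4 reached the filter through the knockouts alone and could only be called higher. Its co-receptor gene Cd14 went from 0.90 ± 0.09 to 36.7 ± 4.21 (edgeR log2 fold change 4.50, adjusted p = 2.77e-05), and Rela, a subunit of NF-kB, from 12.0 ± 0.99 to 43.7 ± 5.81 (edgeR log2 fold change 1.02, adjusted p = 0.000509). The summed FPKM of the list ran from 35.2 to 36.2 in control testis and from 227 to 242 in the knockouts, with knockout 1 in the same range as the others.

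Most macrophage markers and some endothelial markers were higher in the same samples. The macrophage gene C1qa had 11.2 to 13.5 FPKM in the controls and 356 to 471 in the knockouts, and the endothelial gene Cdh5 had 0.34 to 0.54 against 9.75 to 15.2 and Cldn5, of endothelial tight junctions, 2.53 to 2.97 against 21 to 42.0. Of 9 macrophage markers, 7 were higher and 1 lower (Aif1, from between 589 and 668 to between 29.2 and 49.1 FPKM), and of 8 endothelial markers 3 were higher and 0 lower, against 23% of all tested genes called higher and 23.7% lower. Of the 3 endothelial genes, Kdr reached the filter through the knockouts alone and could only be called higher, and the other 2 did not. Without knockout 1 the macrophage counts were 8 higher and 1 lower and the endothelial counts 6 higher and 0 lower, against 33.1% and 31.6% of all tested genes. The summed FPKM of the macrophage markers ran from 646 to 734 in control testis, where Aif1 made up most of it, and from 1183 to 1602 in the knockouts. Their mean on the log2(FPKM + 0.1) scale lay 3.67, 3.47 and 3.21 above that of the controls in knockouts 1, 2 and 3. The part of these cells in the sensing list was not tested.

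**Figure D5:**
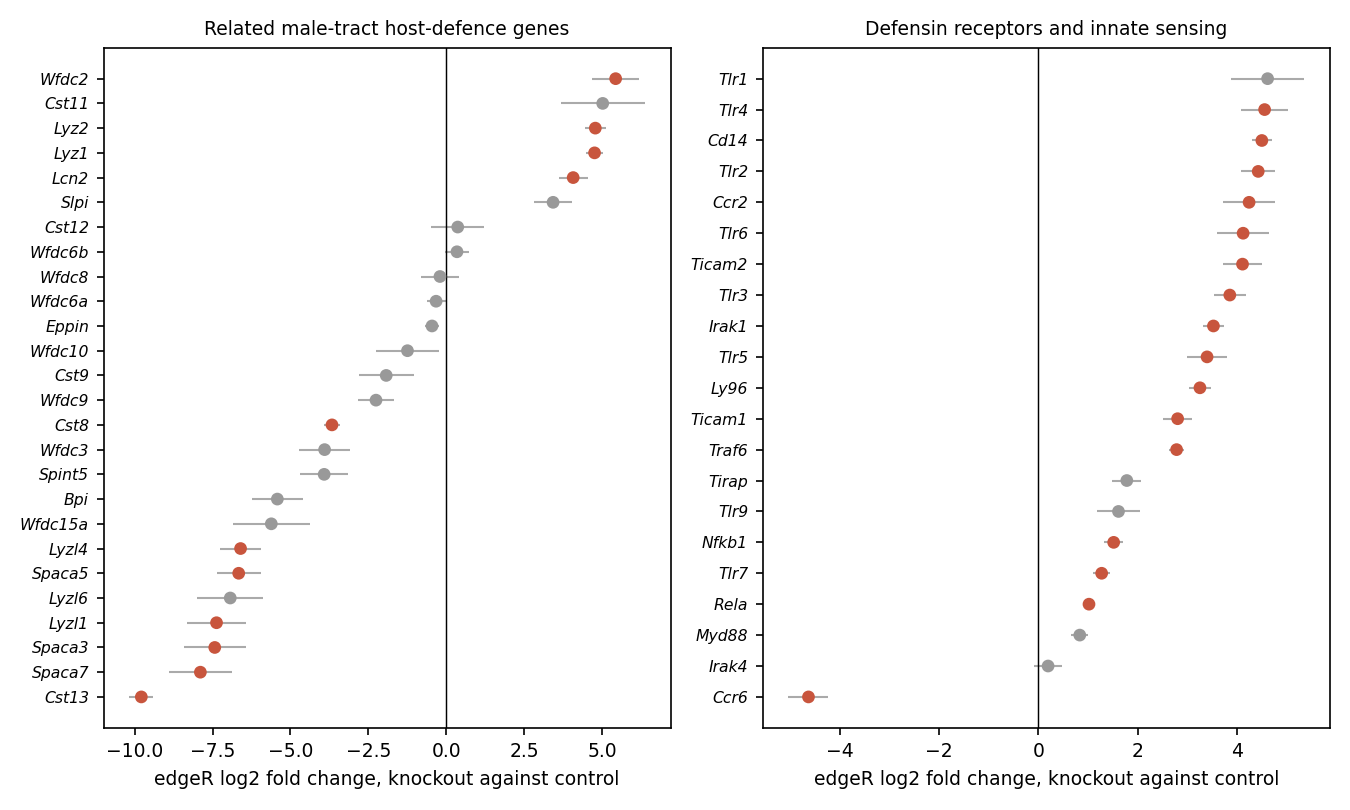
edgeR log2 fold change, knockout against control, of each tested gene of the male-tract host-defence list (left, 26 genes) and of the defensin receptor and innate sensing list (right, 21 genes) in adult testis, with standard errors as bars. Red points passed an adjusted p under 0.001 and a change over 2-fold, 4 higher and 7 lower on the left and 15 higher and 1 lower on the right.

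Markers of the epididymis, the tissue where most beta-defensins are known, were low. Of 12 epididymis markers 7 are listed in the adult table, and they summed to 2.78 to 4.57 FPKM in control testis, against 0.21 to 0.55 in the knockouts. Crisp1, a secreted protein of the epididymal epithelium, was at or below 0.26 FPKM in every adult sample. The rete testis and efferent duct markers, 5 genes, summed to 0.86 to 1.12 FPKM in control testis and to 23.9, 6.67 and 7.86 in knockouts 1, 2 and 3. The keratin gene Krt19 led them (14.4, 4.40 and 4.67), with Pax8 at 4.54, 1.42 and 1.57 and Krt7 at 4.59, 0.70 and 1.26. Nearly all of the control sum of the epididymis markers was Rnase10, at 4.31, 2.67 and 3.20 FPKM, and the part of epididymis in the members' values was not tested.

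Defb19 and Defb36 were counted in all 10 samples, also in adult knockout 1, where spermatid, spermatocyte and spermatogonium markers summed to 3.40, 31.6 and 61.8 FPKM. Of the spermatocyte sum, 28.2 FPKM were Syce2, which encodes a protein of the synaptonemal complex. Of the spermatogonium sum, 36.9 were Kit and 12.0 Etv5, which somatic cells also express, and the germ cell genes Dazl and Ddx4 had 0.51 and 0.93. Defb19 parted from Defb36 in that sample and not in day 7 knockout 1.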

How the data were processed

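RNA from adult testis (6 samples) and from day 7 Sertoli cells (4 samples) was enriched with oligo(dT) and sequenced. The authors used HISAT for the genome (GRCm38.p6) and Bowtie2 for the reference genes, and their methods name RSEM for FPKM. Versions, read filters and strand are not given in the sources used here. The deposited columns hold estimated counts (expected counts, not normalized), FPKM values (scaled for length and depth) and unused TPM values. A further 20 columns of the adult table are empty.

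The members and gene lists were chosen with earlier results of these data known. Members are described without a test. For all other genes, estimated counts were rounded (up to 13.2% of them were not whole) and tested within each table by edgeR's quasi-likelihood test with TMM scaling and Benjamini-Hochberg adjustment, over genes that reached an FPKM of 0.5 in 3 adult or 2 day 7 samples. A call needed an adjusted p under 0.001 and a log2 fold change over 1 in size, the study's thresholds. TMM factors were 0.710 to 1.42 in adult testis and 0.984 to 1.02 at day 7. At these depths the spread between samples limits most values, and counting noise limits Defb25. A gene at 0 in a whole group was given a floor of 3 counts over that group. Other scalings, filters, pseudocounts, thresholds, DESeq2, limma, a replicate block and each sample left out were tried; list counts without adult knockout 1 and on total counts were added after seeing the data. Named genes were the members, Rnf20, other Defb genes above 3 counts, the 2 genes of highest mean FPKM in each list, those called with the largest rise and fall in the host-defence and sensing lists, the members' neighbours and the 3 genes of most alike pattern among genes of mean FPKM of at least 1. Other genes of the lists, such as Sox9, Fshr, Dmrt1, Gata4, Inha, Sycp3, Rhox5, Kit, Etv5, Dazl and adult Acta2, were named after their values were seen, and some day 7 marker genes under the rule are covered only by their list. The edgeR test was also run on counts simulated from the control means, and that outcome is not given here. Sequences were read from GENCODE M21 and RefSeq, where 2 of the 4 members had a promoter entry. The tools were edgeR 4.0.16, DESeq2 1.42.0, limma 3.58.1, R 4.3.3 and Python 3.11.15 with numpy 2.4.6, pandas 2.3.3, scipy 1.17.1 and matplotlib 3.10.9.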

Additional observations from a re-analysis of the deposited data

Results flagged for a closer look

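Defb19 moved in opposite directions at the 2 ages. It was higher in all 3 adult knockouts than in all 3 controls (0.67 on the log2 scale, TMM-scaled counts) and lower in both day 7 knockouts than in both controls (-1.29). Groups did not overlap on that scale in 85.5% of tested adult genes and in 51% at day 7. The day 7 difference had an SE of 0.97 and was -0.41 without knockout 1. The ages also differ in the material, whole testis against cultured Sertoli cells, and come from separate tables, so the difference was not tested.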

How the results depend on the processing

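Over all tested adult genes 3772 were called lower as designed and 6466 at an adjusted p under 0.05 with no fold limit. With 1 sample left out, 1613 to 5031 were called lower. The count of other beta-defensins called lower in adult testis was 2 in the analysis as designed, 4 at an adjusted p under 0.05 with no fold limit, and between 1 and 3 with 1 sample left out. With the replicate block it was 0, as for all genes at these thresholds, while 6061 genes were higher and 6148 lower at an adjusted p under 0.05. Same-numbered samples correlated by 0.02 to 0.04 in their deviations from the group mean. In groups of 2 or 3 samples these deviations are tied to each other, so they cannot decide whether the numbers pair the samples. The Defb19 difference in adult testis, 0.67 on TMM-scaled counts, was 1.53 on total counts and 1.58 as a difference of mean log2(FPKM + 0.1) or log2(FPKM + 1), and 0.44 to 0.87 with 1 sample left out. Defb36 in adult testis changed sign, from 0.11 to -0.11 with median-ratio scaling, to -0.47 with the replicate block, and to between -0.25 and 0.79 with 1 sample left out; the cause was not tested. The Defb33 bound of 2081-fold was 1149-fold on total counts and 1370- to 2268-fold with 1 sample left out; leaving out a knockout lowers it because the floor of 3 counts then covers fewer samples. Relative to the Sertoli cell markers, adult Defb19 (0.17) ran from -0.44 to 0.64 with 1 sample left out. At day 7, Defb19 ran from -3.92 to -0.41, Defb36 from -3.91 to -1.07 and the Defb25 ratio of counts from 0 to 3.39 with 1 sample left out. At day 7 only 1 other beta-defensin was tested, so its count of 0 calls says nothing of stability. With 2 samples in a group, a left-out fit assumes that the lone sample varies like the other group.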

Other observations

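Beta-defensins with low counts were seen in both tables. In adult testis Defb40 had 7 counts in knockout 1 and at most 2 in every other sample, and Defb42 had 4 counts in knockout 2 and at most 1 elsewhere. At day 7 Defb42 had 6 and 8 counts in the controls and 5 and 9 in the knockouts (edgeR log2 fold change 0.03, SE 0.52, adjusted p = 0.982), and Defb47 had 4 and 7 against 4 and 6. Defb45, at 16.2 to 34.7 FPKM in adult controls, had 1 count in the 4 day 7 samples together.

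Of the host-defence list at day 7, 15 genes were tested and 0 were called by edgeR, DESeq2 or limma, with 1 at an unadjusted edgeR p under 0.05. Of the sensing list 15 were tested and 0 were called by any of these, with 2 at an unadjusted edgeR p under 0.05. Over all 12880 tested genes 15.5% had an unadjusted edgeR p under 0.05. Of these 12880, edgeR and limma called 0, and DESeq2 called 104 higher and 22 lower. Cst12, a testis cystatin, had 121 and 96.9 FPKM in the day 7 controls and 10.3 and 87.9 in the knockouts, and in adult testis 232, 203 and 168 against 48.5, 548 and 859, so that it was low in the same knockouts as Defb36. Lcn2 had 40.5 and 27.5 FPKM in the day 7 controls and 88.3 and 14.2 in the knockouts, Rela 51.1 and 51.6 against 54.9 and 51.6, and Irak1 27.4 and 28.3 against 24.1 and 28.0.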
